A study of Mus musculus with 4 samples.

Results

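The splicing factor gene families described here are the 52 protein-coding mouse genes whose symbols begin with Srsf, Hnrnp, Snrp, Sf3a or Sf3b, of 50686 gene identifiers counted. They comprise 11 Srsf, 20 Hnrnp and 12 Snrp genes and 9 genes of the Sf3a and Sf3b groups. Bulk RNA-seq counted their reads in cultured cells whose source is labelled spleen and lymph node. The 4 groups, with 1 library each, were unstimulated WT, unstimulated Yap KO, stimulated WT and stimulated Yap KO cells, and the number 24 in the stimulated titles has no unit. Yap KO cells lack Yap, a coactivator of the Hippo pathway, by label. The sources used here do not name the stimulus, the cell type, the Cre or deletion used, or the age and number of the mice. All titles share the replicate number 1, and nothing says that the 2 libraries of a genotype came from separate animals or cultures.

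Pre-mRNA splicing is carried out by the spliceosome, which is built on small nuclear ribonucleoproteins (snRNPs). Snrp genes encode the Sm proteins, which form a ring on the U1, U2, U4 and U5 RNAs, and the proteins specific to U1 and U2. The SF3a and SF3b complexes belong to the U2 snRNP and hold it at the branch point of the intron. Srsf genes encode SR proteins, which bind exons and mostly promote their inclusion. Hnrnp genes encode abundant nuclear RNA-binding proteins that often favour exon skipping and also act in RNA export, stability and translation. Many SR and hnRNP genes limit their own mRNA through alternative exons that lead to decay. Lymphocyte activation is known to change the splicing of many transcripts, among them that of the phosphatase CD45, whose exon skipping depends on Hnrnpll.

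The libraries held 22088392, 25419974, 20976343 and 19935523 reads in genes, in the order of the groups above. Yap1 had 1, 0, 3 and 2 reads in that order, no more than the 3 counts that a count of 0 allows, and did not serve to check the genotype labels. Summed T cell markers (6 genes) stood at 4012, 4314, 1593 and 1503 counts scaled to library size (CPM), and Cd8a with Cd8b1 at 2152, 2297, 605.2 and 521.4 CPM, while Cd4 had at most 3 reads in each library. Summed B cell markers (6 genes) stood at 1178, 1143, 428.4 and 384 CPM. NK cell markers (4 genes: Ncr1, Klrb1c, Klrk1 and Eomes) summed to 82.2, 220.1, 134.5 and 183.3 CPM. Markers of monocytes and macrophages (5 genes) summed to 14.7 to 27.2 CPM, of neutrophils (3 genes) to 0.049 to 1.83 and of erythroid cells (5 genes) to 0.415 to 3.76. Those of stromal and endothelial cells (5 genes) summed to 156.3, 120.5, 11.1 and 10.2 CPM. Cdh5 was at 0 in all libraries and Pdgfra had at most 3 reads in each, so almost all of this sum came from Pecam1, Col1a1 and Col1a2. The T cell, CD8, B cell, monocyte and macrophage, neutrophil, erythroid and stromal sums were all lower in both stimulated libraries than in both unstimulated ones. The NK sum was not, and it was higher in Yap KO than in WT in both states. The sums were not split by gene, so they do not show which markers carried a difference. The part of these levels in the state and genotype results below was not tested. In such bulk libraries, fewer cells of a type and less RNA per cell cannot be told apart.

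The comparison of stimulated with unstimulated libraries asked which members changed on average over WT and Yap KO, not in each genotype by itself. Most did, and nearly all of these were higher after stimulation. Of the 51 members tested, 39 rose and 2 fell, whereas among all 15394 genes tested 32.1% rose, 32.5% fell and 64.6% changed in either direction (edgeR quasi-likelihood test, additive model of genotype plus state, Benjamini-Hochberg adjusted p under 0.05). At least a 2-fold rise was seen in 22 members, against 21.3% of all genes, and at least a 2-fold fall in 1, against 22.6%. The median log2 ratio of stimulated over unstimulated was 0.77 in WT and 0.94 in Yap KO, beside -0.02 and -0.05 over all genes tested. Reads of all 52 members summed to 13126 CPM in unstimulated WT, 12213 in unstimulated Yap KO, 20473 in stimulated WT and 20880 in stimulated Yap KO cells. Both stimulated sums lay above both unstimulated sums. All levels are scaled to each library, so rises and falls here are relative to other genes, and RNA per cell was not measured. With 1 library per group, the spread behind these p-values comes from differences between the WT and Yap KO responses and not between cultures. For each gene edgeR moderated this spread towards the trend over all genes tested, with 8.45 prior degrees of freedom beside 1 residual.

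**Figure D1:**
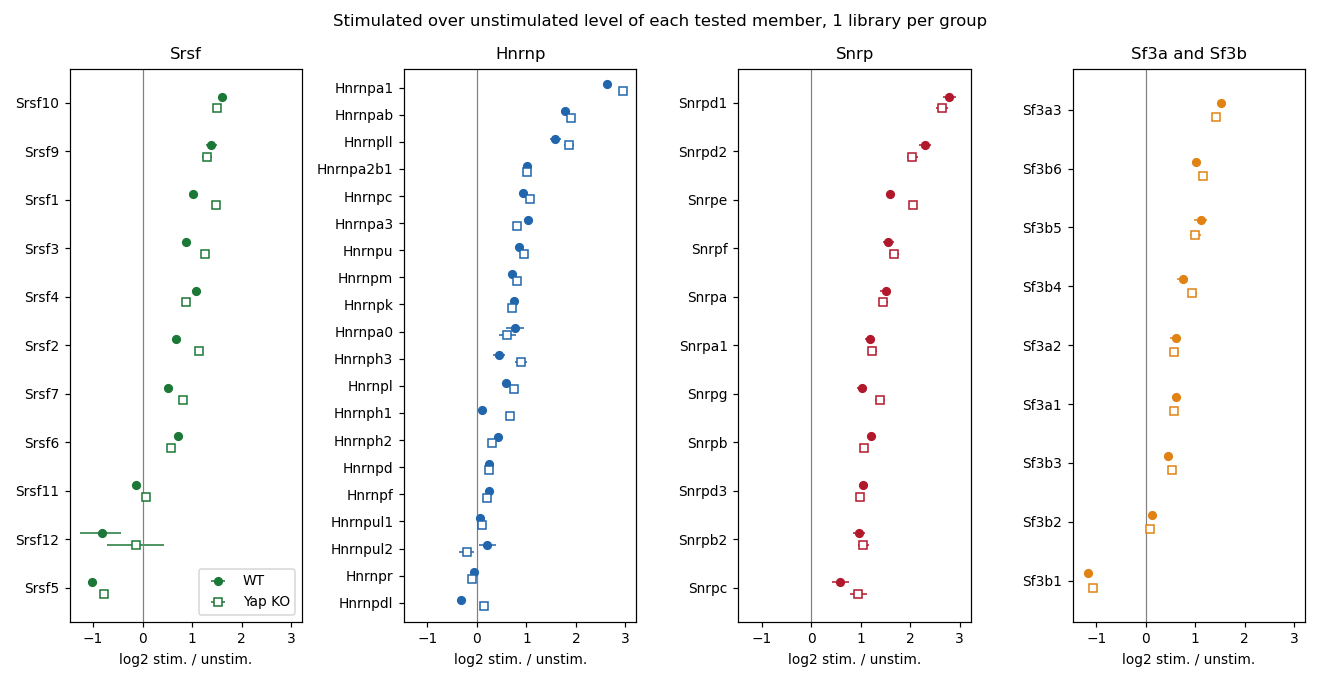
Log2 ratio of stimulated over unstimulated level for each of the 51 tested members, by family, in WT (filled circles) and Yap KO (open squares). Bars are exact 95% counting intervals. All 11 tested Snrp genes lie to the right of 0 in both genotypes, and Sf3b1 and Srsf5 lie to the left of it in both.

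In the snRNP protein family, all 11 tested Snrp genes rose, against 32.1% of all genes tested. Their median log2 ratios were 1.2 in WT and 1.38 in Yap KO. Their summed level went from 724.6 to 1886 CPM in WT and from 764.8 to 2024 CPM in Yap KO. Within the Sm ring the increases were unequal. Snrpd1, which encodes SmD1, stood at 24.5 CPM in unstimulated WT and 26.9 in unstimulated Yap KO cells, and at 168.9 and 167.3 CPM in stimulated WT and Yap KO cells. It rose 6.55-fold (log2 2.71 ± 0.13, SE, adjusted p = 1.64e-07), and both genotypes lay close together in each state. Snrpd2, for the neighbouring ring protein SmD2, stood at 29.2 and 32.6 CPM before and 144 and 134.6 CPM after stimulation in WT and Yap KO. It rose 4.51-fold (2.17 ± 0.14, adjusted p = 7.19e-07), and it lies on chromosome 7 from 19149722 to 19153542 (GRCm38). Snrpe, for SmE, stood at 77.2 and 67.3 CPM before and 232.1 and 280.9 CPM after stimulation. It rose 3.54-fold (1.82 ± 0.15, adjusted p = 3.72e-06), with the stimulated Yap KO library above the stimulated WT library.

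The other ring genes rose by smaller amounts. Snrpf, for SmF, rose 3.08-fold, but 85.4% of its exon bases lie opposite exons of another gene. Snrpg, Snrpb and Snrpd3, for SmG, SmB and SmD3, rose 2.30-fold, 2.20-fold and 2.02-fold. Snrpd3 had 108.1 CPM in WT and 115.7 in Yap KO before stimulation, and 222.8 and 228.2 CPM in the stimulated libraries (log2 1.01 ± 0.12, adjusted p = 5.86e-05). The ratio of Snrpd1 to Snrpd3 per exon length was 0.380 in unstimulated WT and 0.389 in unstimulated Yap KO, and 1.27 and 1.23 in the stimulated libraries. The order of these genes differed between the states in both genotypes, also per median length of the coding transcripts (0.588 and 0.602 before, 1.97 and 1.9 after stimulation). Across the ring, the highest level per exon length (Snrpb in every library) was 10.2 times the lowest (Snrpd2 in every library) in unstimulated WT and 10.3 times in unstimulated Yap KO. After stimulation it was 4.75 and 5.26 times the lowest, so the levels of ring members were closer to each other.

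**Figure D2:**
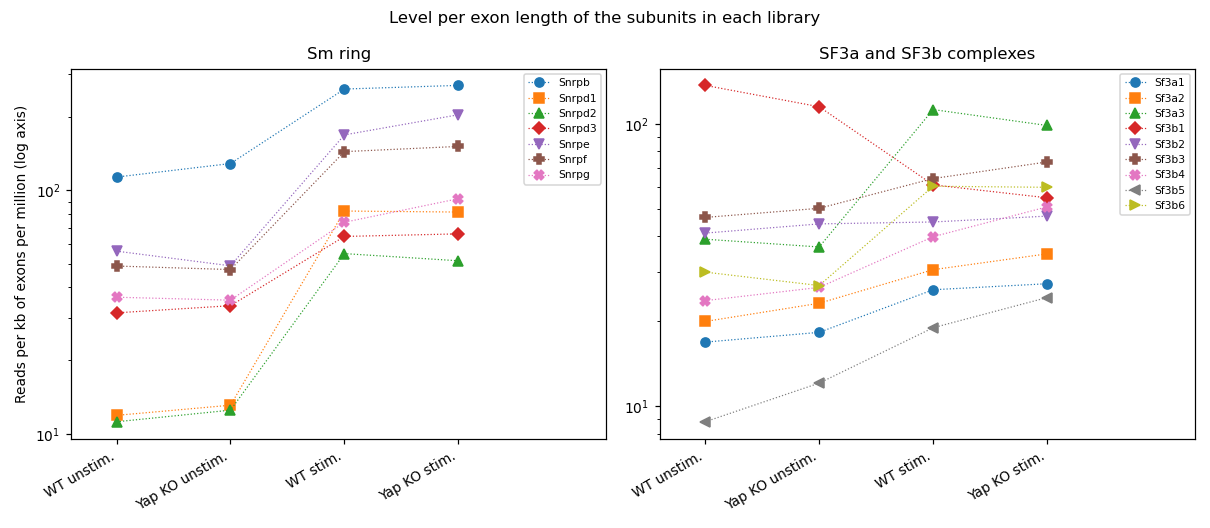
Level per exon length (CPM per kilobase of all annotated exons, log axis) of the Sm ring genes and of the SF3a and SF3b genes in each of the 4 libraries. Dotted lines join the values of 1 gene to guide the eye. Snrpd1 and Snrpd2 move towards the other ring genes, and Sf3b1 falls from 137 to 60.9 in WT while the lowest genes rise.

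Proteins specific to single snRNPs rose as well. Snrpa, for the U1 protein A, went from 45.1 to 127.3 CPM in WT and from 49.2 to 134.9 CPM in Yap KO, a 2.78-fold rise. Snrpc, for the U1 protein C, which contacts the 5' splice site, had the smallest increase of the family. It went from 21.7 to 32.6 CPM in WT and from 18.8 to 36.3 CPM in Yap KO (log2 0.77 ± 0.17, adjusted p = 0.00271). Snrpa1 and Snrpb2, for the U2 proteins A' and B'', rose 2.31-fold and 2.01-fold. Snrpb2 stood in WT and Yap KO at 38.9 and 38.1 CPM before and 75.5 and 79.3 CPM after stimulation (1.01 ± 0.13, adjusted p = 0.000109). The remaining member, Snrpn, encodes SmN, a relative of SmB used mainly in brain. It had 7, 3, 4 and 3 reads in the 4 libraries and did not pass the filter on low counts.

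The SF3a and SF3b genes were divided by 1 subunit. Of 9 genes 7 rose, 1 fell and Sf3b2 did not pass the test, while 32.1% of all genes tested rose and 32.5% fell. Median log2 ratios of the 9 genes were 0.62 in WT and 0.58 in Yap KO. Their summed level changed little, from 2785 to 2585 CPM in WT and from 2617 to 2655 CPM in Yap KO. The gene that fell was Sf3b1, for the large HEAT-repeat subunit that clamps the branch point helix, on chromosome 1 from 54985169 to 55027481. It stood at 1558 CPM in unstimulated WT, 1309 in unstimulated Yap KO, 692.9 in stimulated WT and 623.2 in stimulated Yap KO cells. It fell by 1.12 ± 0.12 on the log2 scale (adjusted p = 3.09e-05), and both stimulated values lay below both unstimulated values. In the unstimulated WT library Sf3b1 had the most reads of any SF3 gene, with 35670. Sf3b6, whose small protein touches the branch point adenosine, went the other way, from 85.3 to 171.7 CPM in WT and from 76.4 to 170.4 CPM in Yap KO (1.08 ± 0.12, adjusted p = 4.12e-05).

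Sf3a3, for the SF3a60 subunit, had the largest increase of the group. It stood at 109 and 102.3 CPM before and 313.3 and 275.2 CPM after stimulation, a rise of 2.78-fold (log2 1.48 ± 0.12, adjusted p = 4.81e-06). Sf3b5, for the smallest SF3b subunit, stood at 33.9 and 46.5 CPM before and 73.2 and 93.2 CPM after stimulation (1.06 ± 0.13, adjusted p = 7.50e-05). Yap KO lay above WT for Sf3b5 in both states. Sf3b3, for the large WD-repeat subunit, rose 1.42-fold (0.50 ± 0.12, adjusted p = 0.00511), from 510.1 to 700.1 CPM in WT and from 549.5 to 801.8 CPM in Yap KO. Sf3b2 stood at 280.7, 302.4, 306.8 and 322 CPM in the 4 libraries (0.11 ± 0.12, adjusted p = 0.453). Sf3a1, Sf3a2 and Sf3b4 rose 1.51-fold, 1.51-fold and 1.80-fold, and 48.6% of the 31-base words of Sf3b4 also occur elsewhere. Without the WT unstimulated library, in a fit of state alone, Sf3a2 and Sf3b3 did not pass the test (adjusted p = 0.0627 and 0.0578), and without the Yap KO stimulated library Sf3b3 did not (0.0541). The ratio of Sf3b1 to Sf3b6 per exon length was 4.58 and 4.3 in unstimulated WT and Yap KO and 1.01 and 0.918 in the stimulated libraries, a 4.53-fold and 4.68-fold lower ratio. Per median length of the coding transcripts it was 3.48 and 3.26 before and 0.768 and 0.697 after stimulation.

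Promoter windows are shown for SF3 genes that rose, for Sf3b1 and for Srsf5, the SR gene that also fell, because 7 SF3 genes rose while Sf3b1 and Srsf5 fell, a choice made after their values were seen. Windows of 250 bases before to 50 after the annotated start were taken from RefSeq on GRCm38.p6, and 46 of the 52 members had at least 1. Both strands were searched for the ETS motif CCGGAAG, the E-box CACGTG, the palindromic NRF1 motif, the YY1 motif AAGATGGCG, CCAAT, the CRE TGACGTCA, the GC box GGGCGG and TATAAA, none of which contains another. The ETS motif, to which factors such as GABPA bind, was in 6 of 7 SF3 genes with a window, all but Sf3b1. In the other families it was in 4 of 11 Srsf, 2 of 18 Hnrnp and 4 of 10 Snrp genes with a window. Over the 9974 tested genes with a window, 20.9% held it, and over all 32851 windows of that length 8.86% did. The 6 SF3 genes include Sf3b2, which did not pass the test for state, while Sf3b4 and Sf3b5, which rose, had no window. Capitals mark the ETS motif on either strand. It starts 90 bases before the start in Sf3a3 and 85 and 70 bases before it in Sf3b6, and Srsf5 has it 90 and 23 bases before the start.
Sf3a3, chr4:124714611-124714910, plus strand: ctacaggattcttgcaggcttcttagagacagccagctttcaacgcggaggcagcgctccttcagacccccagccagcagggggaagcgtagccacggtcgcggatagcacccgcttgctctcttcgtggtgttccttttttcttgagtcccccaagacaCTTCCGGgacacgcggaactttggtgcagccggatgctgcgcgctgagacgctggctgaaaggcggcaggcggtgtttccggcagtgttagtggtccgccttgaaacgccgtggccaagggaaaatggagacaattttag
Sf3b6, chr12:4817358-4817657, plus strand: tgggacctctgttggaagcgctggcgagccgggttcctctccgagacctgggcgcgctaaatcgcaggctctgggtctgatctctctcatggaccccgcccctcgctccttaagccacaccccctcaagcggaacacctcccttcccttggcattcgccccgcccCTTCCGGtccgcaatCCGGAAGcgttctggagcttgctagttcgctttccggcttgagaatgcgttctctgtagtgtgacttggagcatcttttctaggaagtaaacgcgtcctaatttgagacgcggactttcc
Sf3b1, chr1:55027429-55027728, minus strand: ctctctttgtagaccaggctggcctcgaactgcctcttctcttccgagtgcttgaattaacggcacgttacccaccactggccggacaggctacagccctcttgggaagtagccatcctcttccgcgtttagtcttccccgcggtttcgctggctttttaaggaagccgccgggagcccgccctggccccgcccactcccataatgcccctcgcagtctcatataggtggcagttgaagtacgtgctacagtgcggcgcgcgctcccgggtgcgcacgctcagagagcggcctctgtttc
Srsf5, chr12:80945249-80945548, plus strand: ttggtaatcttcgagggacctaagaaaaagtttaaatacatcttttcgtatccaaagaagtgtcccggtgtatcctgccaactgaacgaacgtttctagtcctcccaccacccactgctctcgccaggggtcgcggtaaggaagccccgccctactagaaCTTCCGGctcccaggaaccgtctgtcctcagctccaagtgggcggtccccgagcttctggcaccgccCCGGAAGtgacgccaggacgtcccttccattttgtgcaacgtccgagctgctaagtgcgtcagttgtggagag
A match is only a description of the letters. Srsf5 fell with 2 matches and Sf3b1 fell with none. Over all members with a window the motif was in 16 of 46 (34.8%), in 11 of the 34 that rose and in 5 of the other 12. The E-box was in 6 of 46 members (13.0%) against 11.7% of tested genes, in 4 of the 34 that rose. The GC box was in 33 of 46 (71.7%) against 66.7%, and CCAAT in 23 of 46 (50%) against 42.7%. TATAAA was in 7 of 46 (15.2%) against 8.45%, and the CRE in 2 (4.35%) against 3.59%. The NRF1 motif was in 1 (2.17%) against 2.35%, and the YY1 motif in 1 (2.17%) against 3.66%.

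Among SR protein genes, 8 of 11 rose and 1 fell, while 32.1% of all genes tested rose and 32.5% fell. Median log2 ratios of the SR genes were 0.71 in WT and 0.87 in Yap KO. Srsf10, an SR protein that represses splicing when dephosphorylated, had the largest increase. It stood at 99.6 CPM in unstimulated WT, 105.6 in unstimulated Yap KO, 304.6 in stimulated WT and 298.6 in stimulated Yap KO cells, a rise of 2.94-fold (log2 1.56 ± 0.13, adjusted p = 3.52e-06). Srsf9, one of the small SR proteins, went from 43.1 to 112.8 CPM in WT and from 46.5 to 115.4 CPM in Yap KO (1.35 ± 0.13, adjusted p = 1.10e-05). For both genes WT and Yap KO were close together in each state. Srsf1, the archetype of the family, stood at 290.6 and 232.8 CPM before and 583.7 and 649.4 CPM after stimulation (1.24 ± 0.15, adjusted p = 4.78e-05). Its 2 unstimulated values lay below its 2 stimulated values, and the Yap KO library was the lower one before stimulation and the higher one after it.

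Srsf5 went against the family. It stood at 613.4 CPM in unstimulated WT and 493.7 in unstimulated Yap KO cells, and at 303.1 and 288.8 CPM in the stimulated libraries. It fell by 0.90 ± 0.13 on the log2 scale (adjusted p = 0.000187), and it lies on chromosome 12 from 80945504 to 80950507. Both unstimulated values were above both stimulated ones. Before stimulation the level of Srsf5 per exon length was 3.02 and 3.04 times that of Srsf1 in WT and Yap KO, and after it 0.744 and 0.637 times. Per median length of the coding transcripts these ratios were 4.15 and 4.17 before and 1.02 and 0.875 after stimulation, so on that scale Srsf5 remained above Srsf1 in stimulated WT. Srsf11, an SR-like protein also called p54, stood at 366, 326.4, 333.1 and 339.2 CPM in the 4 libraries and did not pass the test (-0.04 ± 0.13, adjusted p = 0.795). Srsf12, the rarest tested member, had 151, 68, 75 and 46 reads and did not pass it either (-0.51 ± 0.34, adjusted p = 0.213).

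The other SR genes rose 1.56-fold (Srsf6) to 2.09-fold (Srsf3). They include Srsf2, for SC35, a mark of nuclear speckles, which rose 1.88-fold (log2 0.91 ± 0.15, adjusted p = 0.000381) and has 25.3% of its exon bases opposite other genes. Srsf4 rose by 0.97 ± 0.13 on the log2 scale and Srsf7 by 0.67 ± 0.13, and 43.0% of Srsf4 exon bases lie opposite another gene.

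**Figure D3:**
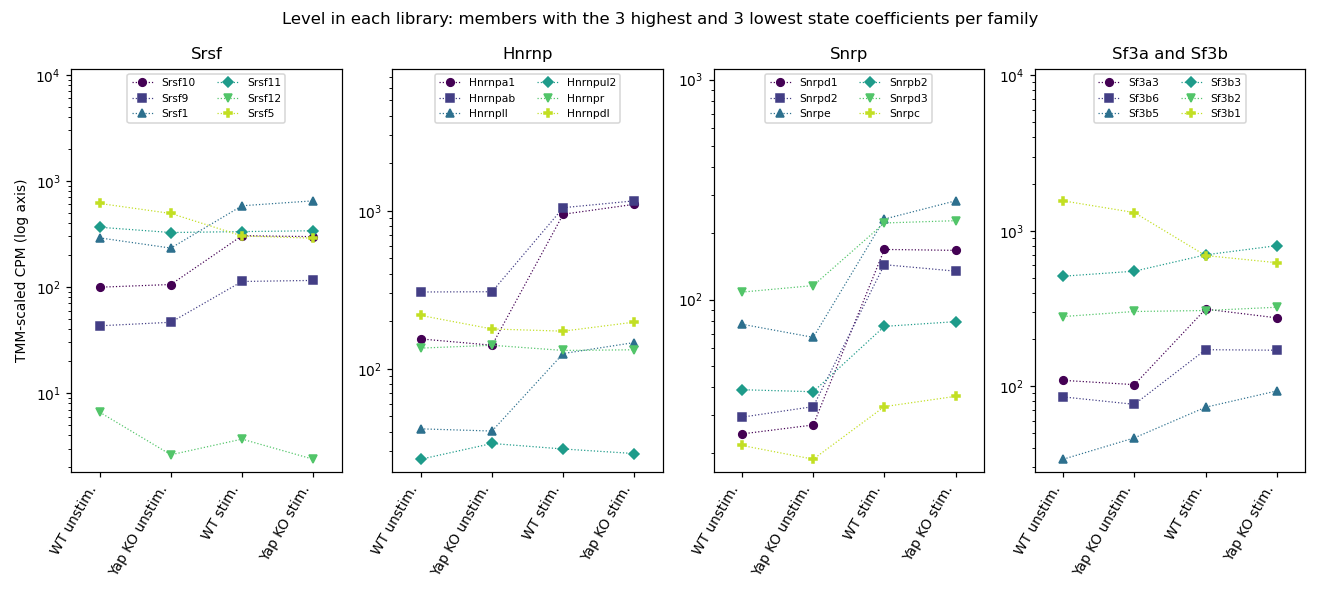
TMM-scaled CPM (log axis) in each of the 4 libraries for the 3 members with the highest and the 3 with the lowest state coefficient in each family. Dotted lines join the values of 1 gene to guide the eye. Srsf5 and Sf3b1 are lower in both stimulated libraries, and Hnrnpa1 goes from at most 154.6 to at least 951.7 CPM.

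Of 20 hnRNP genes 13 rose, none fell and 7 did not pass the test, while 32.1% of all genes tested rose and 32.5% fell. The share called in either direction, 65%, was near the 64.6% of all genes, so as counts of calls the family differed in direction. At least a 2-fold rise was seen in 5 of the 20 genes, against 21.3% of all genes. At least a 2-fold fall was seen in none, against 22.6%. Median log2 ratios of the family were 0.64 in WT and 0.73 in Yap KO. Hnrnpa1, which represses the inclusion of many exons, had the highest state coefficient of all members, although within WT its log2 ratio of 2.62 was below the 2.78 of Snrpd1. It had 154.6 CPM in WT and 141.1 in Yap KO before stimulation, and 951.7 and 1100 CPM in the stimulated libraries. It rose 6.93-fold (log2 2.79 ± 0.14, adjusted p = 1.97e-07), and it lies on chromosome 15 from 103240432 to 103246692. Of its 31-base words 29.9% also occur elsewhere, the most in the processed pseudogene Gm10052, and reads aligned in more than 1 place are not in its counts. Hnrnpab, a relative of hnRNP D that binds AU-rich RNA, stood at 306.5 and 307.7 CPM before and 1047 and 1157 CPM after stimulation (1.84 ± 0.13, adjusted p = 1.28e-06), with 29.1% of its exon bases opposite another gene.

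Hnrnpll, known in T cells for the skipping of CD45 exons, was the other member among the top of the family. It stood at 41.7 CPM in unstimulated WT, 40.4 in unstimulated Yap KO, 125 in stimulated WT and 146.7 in stimulated Yap KO cells, a rise of 3.30-fold (log2 1.72 ± 0.14, adjusted p = 3.09e-06). Its gene lies on chromosome 17 from 80029487 to 80062334, and only 0.6% of its 31-base words occur elsewhere. Its paralog Hnrnpl rose 1.58-fold. The ratio of Hnrnpll to Hnrnpl per exon length was 0.0678 and 0.0687 in unstimulated WT and Yap KO and 0.136 and 0.149 after stimulation, so it was 2.01 and 2.16 times as large. Counts per gene do not show exon use, so CD45 isoforms were not measured here.

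Paralogs differed in size within other hnRNP groups too. In the A group, Hnrnpa2b1 rose 2.03-fold, Hnrnpa3 1.89-fold and Hnrnpa0 1.61-fold. Without the WT unstimulated library, in a fit of state alone, Hnrnpa0 did not pass the test (adjusted p = 0.061). The ratio of Hnrnpa1 to Hnrnpa2b1 per exon length was 0.348 and 0.346 in unstimulated WT and Yap KO and 1.05 and 1.34 in the stimulated libraries. Per median length of the coding transcripts it was 0.158 and 0.157 before and 0.479 and 0.607 after stimulation, so on that scale Hnrnpa1 remained below Hnrnpa2b1. In the D group, Hnrnpd and Hnrnpdl, which lie close to each other on chromosome 5, did not pass the test while Hnrnpab rose. Hnrnpdl, an RNA-binding protein related to hnRNP D, stood at 217.7, 178.8, 173.2 and 197.6 CPM (log2 -0.09 ± 0.14, adjusted p = 0.594), so its values overlapped between the states. In the H and F group, Hnrnph3 rose 1.59-fold and Hnrnph2 1.28-fold, while Hnrnpf, with coefficient 0.22, and Hnrnph1, with 0.38, did not pass it (adjusted p = 0.134 and 0.0514). Hnrnph2 did not pass it without any 1 of the 4 libraries (adjusted p 0.0676 to 0.117) or with total-count scaling (0.0725). Hnrnph1 passed with RLE scaling (adjusted p = 0.0442), without the filter on low counts (0.0142) and without the WT unstimulated library (0.0331).

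In the U group, Hnrnpu, a scaffold protein of the nuclear matrix, rose 1.87-fold, whereas its relatives Hnrnpul1 and Hnrnpul2 did not pass the test. Hnrnpul2 stood at 26.8, 33.7, 31.1 and 29.1 CPM (log2 0.00 ± 0.17, adjusted p = 0.993). Hnrnpr, a relative of the mRNA-binding protein Syncrip, stood at 135.3, 141, 130.8 and 132 CPM (-0.07 ± 0.12, adjusted p = 0.624). The values of Hnrnpul2 overlapped between the states and went in opposite directions in WT and Yap KO, while both stimulated values of Hnrnpr lay slightly below both unstimulated ones. Hnrnpc, which binds uridine tracts, rose 2.01-fold, Hnrnpm 1.69-fold and Hnrnpk, which binds C-rich RNA, 1.66-fold.

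Levels of different genes can be compared only per length. In CPM per kilobase of all annotated exons (RPKM), averaged over the 4 libraries, the highest members were Hnrnpf at 270.8, Hnrnpab at 253.2, Hnrnpa2b1 at 204.4, Hnrnpk at 197.1 and Snrpb at 193.5 RPKM. Annotated exons include retained introns, which add length and lower these values. Per median length of the coding transcripts, a choice made after seeing the data, these genes stood at 363.3, 350, 817.1, 478.3 and 329.3, and Hnrnpa1, at 337.9, stood above Snrpb. The 2 orders share 4 of their top 5, and ratios of 1 gene between libraries do not depend on the length. For Hnrnpf, 46.0% of the 31-base words also occur elsewhere and 26.5% of the exon bases lie opposite other genes, and what this does to its level was not tested.

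Other genes of the splicing pathway gave a context by role, in 5 lists. Of 37 other snRNP and branch point proteins 25 rose and none fell, while 32.1% of all genes tested rose and 32.5% fell. Median log2 ratios of this list were 0.87 in WT and 0.90 in Yap KO. Snrnp35, a protein of the minor U11 snRNP, rose by 2.35 ± 0.33 (adjusted p = 0.000145), from 32 and 36 reads to 143 and 139. Lsm2, of the ring on U6 RNA, rose by 2.29 ± 0.14 (adjusted p = 5.71e-07), whereas Snrnp70, the U1 70K protein, rose by 0.58 ± 0.13 (adjusted p = 0.00297) and Lsm4 by 0.40 ± 0.13 (adjusted p = 0.0204). Of 16 genes that assemble and import the Sm ring 13 rose and none fell (medians 1.27 and 1.22). Gemin6, of the SMN complex, rose by 2.55 ± 0.15 (adjusted p = 4.42e-07) and Wdr77, the partner of the Sm methyltransferase Prmt5, by 1.79 ± 0.13 (adjusted p = 1.92e-06). Ddx20, also of the SMN complex, rose by 1.09 ± 0.13 and Phax, an adaptor for snRNA export, by 0.71 ± 0.14. Genes of the Sm ring and of its assembly thus both had more rises than the 32.1% of all genes, as counts.

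Among the kinases of SR proteins and SR-related proteins 7 of 19 rose and 7 fell, near the 32.1% and 32.5% of all genes (medians -0.15 in WT and -0.16 in Yap KO). Rnps1, of the exon junction complex, rose by 1.35 ± 0.13 (adjusted p = 1.20e-05) and Pnn, its partner, by 0.73 ± 0.13 (adjusted p = 0.000800). Clk1, a nuclear kinase of SR proteins, fell by 1.34 ± 0.13 (adjusted p = 1.15e-05), from 591.1 to 217.5 CPM in WT and from 421.8 to 179.1 CPM in Yap KO. Srpk2, a cytoplasmic SR kinase, fell by 1.40 ± 0.13 (adjusted p = 9.13e-06). Among the other kinase genes of the list, Srpk1 and Clk4 fell too, whereas Clk2, Clk3 and Prpf4b did not pass the test. Most Srsf genes rose in the same libraries, and a link between the kinase and Srsf changes was not tested.

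Of the other alternative splicing regulators 15 of 33 tested rose, against 32.1% of all genes, and 10 fell, against 32.5% (medians 0.19 and 0.27). Cirbp, a cold-inducible RNA-binding protein, fell by 2.97 ± 0.17 (adjusted p = 3.82e-07), from 60.2 and 58.8 CPM to 8.38 and 6.79. Mbnl1, a regulator of developmental splicing, fell by 1.45 ± 0.16 (adjusted p = 2.92e-05), while Mbnl3 rose by 1.28 ± 0.19 and Zranb2 by 1.27 ± 0.13. The count that fell was 6 without the WT unstimulated or without the Yap KO stimulated library. Rbfox2 did not pass the filter, with 0, 0, 11 and 9 reads. Of 28 genes of the Prp19 complex and catalytic steps 12 rose and 3 fell (medians 0.24 and 0.22), with 1 fall without the Yap KO unstimulated library. Prpf38a rose by 1.37 ± 0.13, whereas Prpf38b fell by 0.50 ± 0.12 (adjusted p = 0.00545) and Syf2 by 0.45 ± 0.12 (adjusted p = 0.00996).

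**Figure D4:**
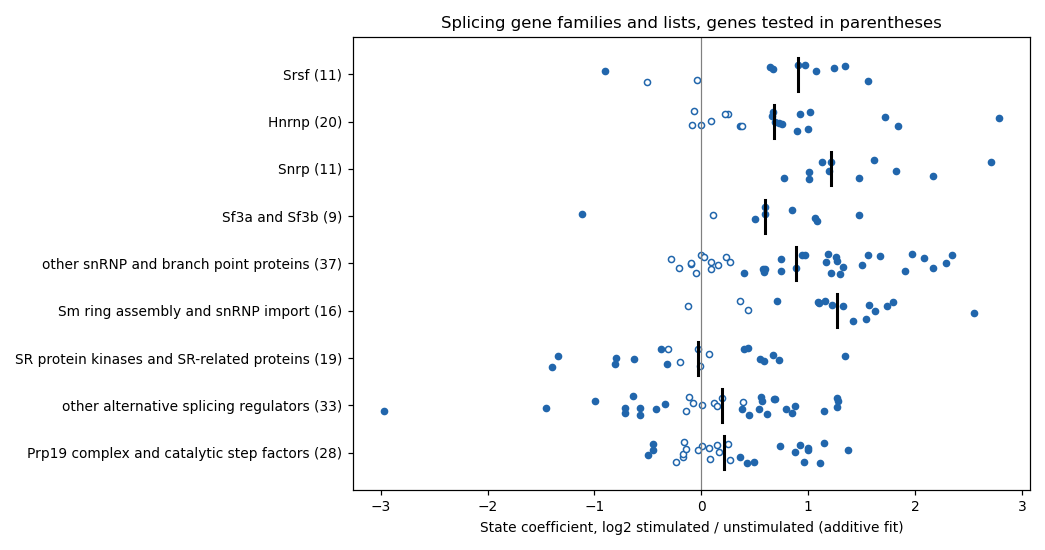
State coefficient (log2 stimulated over unstimulated, additive fit) of each tested gene in the 4 families and in 5 lists of other splicing genes. Filled points passed the test, open points did not, and bars are medians. The Snrp family and the Sm assembly list have the highest medians, and the SR kinase and SR-related list lies on both sides of 0.

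The comparison of Yap KO with WT libraries gave small differences in these families. None of the 51 tested members was called higher or lower in the additive edgeR fit, where 0.695% of all genes were called higher and 0.487% lower. DESeq2 called none either, and 2 members had an unadjusted edgeR p under 0.05, beside 10% of all genes. With 2 libraries per genotype, 1 in each state, these tests do not measure the spread between animals. Median log2 ratios of Yap KO over WT were -0.04 unstimulated and 0.05 stimulated, beside 0.03 and 0.00 over all genes. At least a 1.5-fold difference in either state was seen for 1 member, Srsf12, against 31.2% of all genes. The median of the mean reads per library was 4213 for the members and 436 for all genes tested. Ratios of genes with few reads carry more counting error, so the 1.5-fold shares do not compare size at equal depth.

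The members at the ends of the genotype comparison did not pass the test. Sf3b5 was 776 and 1206 reads in unstimulated WT and Yap KO, with log2 ratios of 0.45 (95% counting interval 0.32 to 0.59) unstimulated and 0.35 (0.25 to 0.45) stimulated and an adjusted p of 0.277. Sf3b4, for a subunit with RNA-binding domains, had ratios of 0.16 (0.04 to 0.27) and 0.35 (0.26 to 0.44), and Snrpa1 had 0.21 (0.11 to 0.32) and 0.26 (0.19 to 0.34), with adjusted p of 0.578 and 0.581. These 3 genes were higher in Yap KO in both states. At the low end, Srsf12 had -1.30 (-1.77 to -0.91) and -0.61 (-1.19 to -0.08), Srsf7 -0.39 (-0.43 to -0.35) and -0.10 (-0.14 to -0.07), and Srsf4 -0.12 (-0.21 to -0.03) and -0.31 (-0.38 to -0.24), with adjusted p of 0.312, 0.596 and 0.643. Counting intervals lay above 0 in both states for 8 members and below 0 in both for 7, against 10.8% and 7.5% of all genes. They lay clear of 0 in opposite directions for 11 members, against 8.88%. Of the 8, 5 were SF3 genes and 3 Snrp genes, and of the 7, 4 were Srsf, 2 SF3 and 1 Hnrnp. Counting intervals are narrower for genes with more reads, and the median reads of the members were above those of all genes tested.

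By family, the lowest median ratio of Yap KO over WT was that of the unstimulated SR protein genes, at -0.31. Summed Srsf levels were 3036 CPM in WT and 2518 in Yap KO before stimulation, and 4304 and 4277 CPM after it. Of 11 Srsf genes 6 were at least 1.2-fold lower in unstimulated Yap KO with an interval below 0, a limit chosen after seeing the values, against 13% of all genes, and none was at least 1.2-fold higher, against 16.5%. After stimulation 5 members, 3 of them Snrp and 2 SF3 genes, were at least 1.2-fold higher in Yap KO, against 13.7% of all genes, and 3, of which 2 are Srsf genes and 1 is an Hnrnp gene, were as much lower, against 15.5%. Over all 51 members, 9 were at least 1.2-fold lower in unstimulated Yap KO and 2 higher. Srsf2 stood at 420.2 and 312.6 CPM (log2 -0.43, interval -0.47 to -0.38) and Srsf3, the smallest SR protein, at 410.9 and 321.3 CPM (-0.35, -0.40 to -0.31). In the stimulated libraries these genes stood at 669.4 and 691.9 and at 753 and 767.8 CPM, with Yap KO slightly above WT. Each of these values is from 1 library, so library and genotype cannot be told apart.

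**Figure D5:**
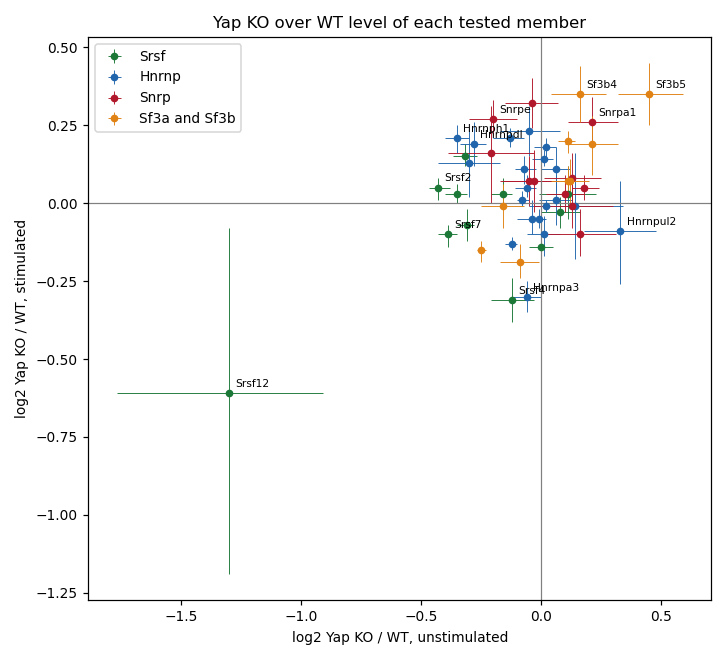
Log2 ratio of Yap KO over WT for each tested member, unstimulated (horizontal) against stimulated (vertical), coloured by family, with exact 95% counting intervals. Both axes share the direction Yap KO over WT. All members but Srsf12, at -1.30 and -0.61, lie within 0.5 of 0 on both axes, and Srsf1, Srsf2 and Srsf3 lie left of 0 and above it.

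The size of the stimulation response was compared between genotypes without a test, since the additive fit leaves no replicate for it. The counting interval of the difference excluded 0 for 33 of 51 members, against 40.5% of all genes, and for 10 of 11 Srsf genes. Such intervals are narrower for genes with more reads, and the median of the mean reads was 4213 for members against 436 for all genes tested. These shares are therefore not comparable as measures of size. A difference of at least 1.5-fold was seen for 1 member, Srsf12, which averaged 85 reads, against 26.8% of all genes. Ratios of genes with few reads carry more counting error, so these shares depend on depth as well. Among members averaging at least 100 reads, the largest differences towards Yap KO were in Hnrnph1, an hnRNP that binds G-rich RNA, at 0.56 (95% counting interval 0.49 to 0.62), Hnrnpdl at 0.47 (0.39 to 0.56) and Srsf2 at 0.47 (0.42 to 0.53). Hnrnph1 stood at 318.1 and 341.2 CPM in unstimulated and stimulated WT and at 249.8 and 393.7 CPM in Yap KO. The largest towards WT were in Hnrnpul2 at -0.42 (-0.64 to -0.20), Snrpd2 at -0.26 (-0.42 to -0.09) and Hnrnpa3 at -0.24 (-0.32 to -0.17). Stimulated Hnrnpa3 stood at 370.7 CPM in WT and 300.3 in Yap KO.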

How the data were processed

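Bulk RNA-seq of 4 libraries was analysed, 1 per group. The authors deposited raw read counts per Ensembl gene identifier for each library, followed by 5 summary entries that resemble those of htseq-count and were left out, so that 35.6 to 39.7% of all entries were used. Per the submitters' processing notes the build was mm9. The aligner, annotation and strand setting were not given in the sources used. Symbols, biotypes, exon lengths and coordinates came from GENCODE M21 on GRCm38, which named 50376 of 50686 identifiers. Reads in genes numbered 19935523 to 25419974 per library.

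Low counts were removed by edgeR's filterByExpr, grouped by state with a minimum count of 10, libraries were scaled with TMM, and the quasi-likelihood test (edgeR 4.0.16, R 4.3.3) used an additive model of genotype plus state over the 4 libraries, with 1 residual degree of freedom and Benjamini-Hochberg adjustment at 0.05 over 15394 genes. The SE was the coefficient divided by the square root of F. CPM are TMM-scaled. Log2 ratios of 1 library to another used a prior count of 2, with exact (Clopper-Pearson, conditional binomial) 95% intervals, which cover counting error only. Intervals of response differences are normal on the log scale. The share of a gene's 31-base words found elsewhere was computed from the reference transcripts, and 7 members shared at least 20%. Exons opposite another gene were found in 19 members. The fit was tested on simulated data.

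Named with values were, per family, the 3 highest and 3 lowest state coefficients and calls against the majority, the 3 highest and lowest genotype coefficients and response differences, the 5 highest levels per length, members that did not pass the filter, and per list the 2 highest and 2 lowest calls. Other members were named for their role. 1 gene that this rule names in a list is not reported here. The members, lists and rules were chosen with earlier results of these data known. Alternatives were DESeq2 1.42.0, RLE or total-count scaling, other filters, other designs, leaving out each library, other prior counts and subsets of members.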

Additional observations from a re-analysis of the deposited data

Results flagged for a closer look

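Hnrnph1 went in opposite directions between genotypes in the 2 states, with a log2 ratio of Yap KO over WT of -0.35 unstimulated and 0.21 stimulated. Hnrnpul2 went in opposite directions with stimulation in the 2 genotypes, at 0.21 (log2) for WT and -0.21 for Yap KO. Each value is from 1 library against 1 library with a counting interval clear of 0 and a size of at least 0.2, a limit chosen after seeing the values, and neither difference was tested. Intervals clear of 0 in opposite directions were seen for the genotype contrast in 11 of 51 members against 8.88% of all genes, and for stimulation in 3 members against 1.87%. Such intervals are narrower for genes with more reads, and the members had a median of 4213 mean reads against 436 for all genes tested. Outside the members, Snrpert, a processed pseudogene that shares 31-base words with Snrpe, had 58 reads in unstimulated WT, 90 in unstimulated Yap KO, 190 in stimulated WT and 196 in stimulated Yap KO cells. Snrpe shares 13.8% of its 31-base words with other places.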

How the results depend on the processing

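Across the alternatives, 36 to 40 members rose and 2 fell, apart from settings that changed the list itself. Without members opposite another gene 25 rose of 33 tested, with fewer genes counted, without those sharing 31-base words 33 of 44 rose, and with the Snrnp genes added 44 of 58. Leaving out each library in turn, with state alone as the design, gave 36 to 38 rises and 2 falls. In those fits 1 state is a single library, assumed to vary like the 2 libraries of the other state, so they say little about stability. Of the 41 called members 37 kept their call in every one of these fits. Hnrnph2 lost it with total-count scaling and without any 1 library (adjusted p 0.0676 to 0.117), Hnrnpa0 and Sf3a2 without the WT unstimulated library (0.0610 and 0.0627), and Sf3b3 without that library or the Yap KO stimulated one (0.0578 and 0.0541). No member was called by genotype in the main fit, with DESeq2, with RLE or total-count scaling, under either other filter or with genotype alone, and leaving out libraries was not run for genotype. Scaled to total counts the median of all genes shifted to -0.11 in WT and -0.13 in Yap KO, and the members' WT stimulation median moved from 0.77 to 0.68, while without members opposite another gene it was 0.93. Among other regulators, leave-one-out gave 6 to 9 falls in place of 10, with 6 both without the WT unstimulated and without the Yap KO stimulated library, and for the Prp19 list 1 to 3, with 1 without the Yap KO unstimulated library. Without a filter on low counts 1 gene of the Sm assembly list and 1 other regulator were called higher in Yap KO, where the main test called 0. Per coding transcript length, Hnrnpf, Hnrnpa2b1, Hnrnpk and Snrpb stood at 363.3, 817.1, 478.3 and 329.3. The causes of these shifts were not tested. No paired analysis was possible because every library carries the replicate number 1, beyond the genotype term of the additive fit, which already sets the 2 libraries of a genotype against each other. Without that term 39 members rose and 2 fell. With 1 library per group, depth limits counting error only, and Snrpn and Srsf12 are the members it limits most.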
